A study of Bruguiera gymnorhiza with 19 samples.

Results

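Leaves of Burma mangrove (*Bruguiera gymnorhiza*) plants kept for 6 h in sorbitol were compared with leaves taken just before that treatment began. The comparison rests on 6 of the 18 samples, chosen by their labels: 3 from sorbitol 0 h and 3 from sorbitol 6 h, each lettered A, B and C. The plants had been raised in the laboratory from viviparous seeds and were 3 years and 7 months old in every group. At the start of the treatment their culture water was exchanged for 1 M sorbitol. The sorbitol 0 h leaves had therefore seen no stress, and leaves from 24 h of sorbitol and a parallel series in 500 mM NaCl (0 h, 6 h and 24 h, 3 samples each) served as references.

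Sorbitol is an uncharged sugar alcohol that lowers the water potential around the roots without adding salt ions, whereas NaCl brings osmotic stress and ions together. Plant cells under osmotic stress lose water, close stomata and accumulate compatible solutes, and in Arabidopsis the stress is signalled along routes that depend on the hormone abscisic acid and along others that do not. Burma mangrove is a salt-tolerant tree of tropical shores that has no salt glands and keeps ions in check within its roots and cells. The files pair each probe with the name of a clone (Bg) or of a contig of clones (CL) and with no gene description, so the probes are described here by name, sequence, level and response, and leaf identity could not be set against marker genes.

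Transcripts were measured with Cy5-labelled cRNA on 1-colour arrays of 11997 mangrove oligonucleotide probes, and 8655 probes above the negative controls in at least 3 of the 18 samples were tested. Median intensities on the 6 arrays ran from 52.87 to 732.6 on the scanner's linear scale. Both C arrays had the lowest signal, with 2126 (0 h) and 3216 (6 h) probes read as 0, whereas the other 4 arrays had 0 to 46 such probes. Among the reference arrays, NaCl 6 h C (2206 probes read as 0) and sorbitol 24 h C (2433) were also arrays of lowest signal. These C arrays were not left out, and the count without the arrays of lowest signal is given beside the main count. The level a probe had to pass to be above the negative controls was 536.2, 582.0 and 53.36 at 0 h A, B and C. At 6 h it was 113.8, 456.8 and 2.509. Mangrove probes above it numbered 6585, 7121 and 6559 at 0 h and 7857, 7133 and 8236 at 6 h, so the bar was not equal on all arrays. After normalization the 0 h arrays correlated across probes with r of 0.927 to 0.940 and the 6 h arrays with r of 0.877 to 0.935. Arrays of different groups correlated with r of 0.838 to 0.924, so the highest of these (0 h B with 6 h B) exceeded the lowest r within the 6 h group. No untreated leaves from 6 h were among the samples, so the treatment and the time since sampling began cannot be told apart. In whole leaves, a change in RNA per cell and a change in the mix of cells cannot be told apart either.

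The sequences that carry the main results are shown first, 5′ to 3′ as the files give them, because no gene name is available. The first 4 belong to probes with the largest rises; 2 of these rose in sorbitol beside like changes in NaCl, and the other two differed from NaCl.
CL177Contig1_346_381: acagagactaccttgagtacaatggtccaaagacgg
Bg05-10_D05_200_234: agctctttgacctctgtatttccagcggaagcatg
CL1079Contig1_440_479: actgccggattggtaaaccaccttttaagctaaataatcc
Bg04-17_B15_512_550: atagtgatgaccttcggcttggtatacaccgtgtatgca
The next 3 are among the 12 probes with the largest falls and share 30 consecutive bases, set in capitals. They are offset by a few bases against each other.
Bg01-08_I17_100_134: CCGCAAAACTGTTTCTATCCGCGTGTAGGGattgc
Bg02-09_D21_98_132: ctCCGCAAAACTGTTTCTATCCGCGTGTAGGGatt
CL776Contig1_95_129: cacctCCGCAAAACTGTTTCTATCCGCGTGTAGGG
A further pair, both among the 12 largest rises, shares 34 bases (capitals).
Bg04-13_F23_528_563: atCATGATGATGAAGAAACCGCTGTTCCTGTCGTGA
CL99Contig1_532_567: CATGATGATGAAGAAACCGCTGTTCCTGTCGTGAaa
The last pair consists of 2 spots with the same 35 bases (all in capitals), which shows that spots of an identical sequence can differ.
Bg04-24_G04_390_424: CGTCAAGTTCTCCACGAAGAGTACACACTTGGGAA
Bg04-04_P17_390_424: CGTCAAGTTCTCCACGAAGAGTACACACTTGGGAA

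After 6 h in sorbitol 274 of the 8655 probes had changed (limma, Benjamini-Hochberg adjusted p under 0.05 over all probes), which is 3.17% of those tested. Of these, 153 rose (1.77%) and 121 fell (1.40%). The median log2 fold change was 1.35 among the probes that rose and -1.53 among those that fell, against 0.00 over all probes. At least 2-fold changes were fitted for 143 of the risen and 110 of the fallen probes, and at least 4-fold changes for 22 and 26. These fitted counts include probes for which only a bound can be given, as described below. In all 274 the 3 samples at 6 h lay on one side of the 3 at 0 h, as they did in 16.4% of all probes tested. The fit that left out the arrays of lowest signal called 206 probes, of which 98 rose and 108 fell. The direction of the 274 probes could not change in that fit, because their 2 groups do not overlap. Of the 274, 155 were called in it, including the 24 with the largest rises and falls.

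The probes that fell started from higher levels than those that rose. The median level at 0 h was 11.41 (log2 intensity) among fallen probes and 8.89 among risen probes, beside 9.32 over all probes. At 6 h the medians were 9.50 and 10.47. Split by mean level into 4 sets of equal size, 3.00% of the brightest set fell and 0.462% of the dimmest, while 2.45% and 1.43% rose. Over all 8655 tested probes, 1047 were above the negative controls in no sample at 0 h, and 163 of these were above them in all 3 at 6 h. Of the 153 risen probes, 40 were above the negative controls in no sample at 0 h, and 32 of those 40 were above them in all 3 samples at 6 h. At 6 h 288 of all tested probes were above the negative controls in no sample. Of the 121 fallen probes, 9 were above the negative controls in no sample at 6 h. For such probes the fitted fold is no exact size, and a bound is given as "at least". It sets the brighter group's mean against the dimmer group's, with each dim value raised to the lowest signal detected on its array. Among the 39 risen probes with a bound, it reached 2-fold in 5, and the lowest was 0.77, which is no rise. Among the 9 fallen ones it reached 2-fold in 2, and the lowest was 1.27. Another risen probe, 1 of the 40, was above the negative controls in no sample of either group. Of the 274 probes, 3 had a spot whose mean or median pixel reached the scanner ceiling on 1 of the 6 arrays.

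**Figure D1:**
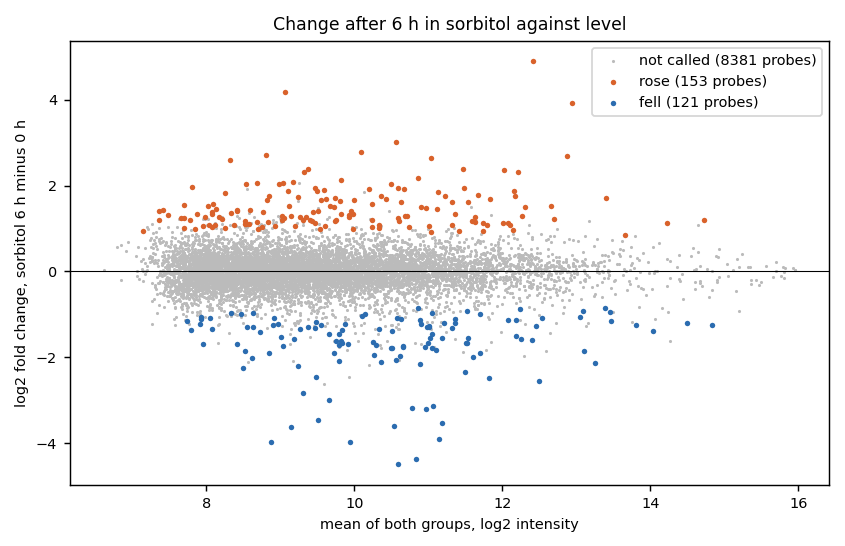
Log2 fold change (sorbitol 6 h minus sorbitol 0 h) against the mean log2 intensity of both groups, 1 point per tested probe, with the 153 probes that rose and the 121 that fell in colour. The falls lie further to the right, among brighter probes, than the rises.

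The largest rise was that of CL177Contig1_346_381. Its log2 intensity was 9.31, 9.77 and 10.82 in samples A, B and C at 0 h and 14.83, 14.73 and 15.04 at 6 h. All 3 samples at 6 h were far above all 3 at 0 h, and the means were 9.97 ± 0.77 and 14.87 ± 0.16 (SD, n = 3). The log2 fold change was 4.90, or 29.9-fold (SE 0.35, adjusted p = 1.03e-08 by limma). At 24 h of sorbitol the same probe stood at 7.52, 6.97 and 6.88, above the negative controls in no sample and below every 0 h value. In NaCl it stood at 9.96 to 11.11 at 0 h and 15.31 to 15.58 at 6 h, a log2 difference of 5.07 whose size is not exact, because its mean or median pixel reached the scanner ceiling on 1 of the 3 NaCl arrays at 6 h.

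Bg05-10_D05_200_234 had a like course. It read 10.87, 11.16 and 10.90 at 0 h and 15.11, 14.78 and 14.83 at 6 h, with no overlap. The log2 fold change was 3.93 (SE 0.25, adjusted p = 2.67e-09 by limma), and at 24 h the values were 10.62, 10.64 and 10.04, all under the 0 h values. In NaCl it stood at 10.88 to 11.38 at 0 h and 15.34 to 15.84 at 6 h, where 1 spot was likewise saturated. CL286Contig1_635_669 read 11.22, 11.72 and 11.66 at 0 h and 14.02, 14.08 and 14.57 at 6 h, a log2 fold change of 2.69 (SE 0.36, adjusted p = 9.57e-05 by limma). At 24 h it was at 10.34, 9.79 and 9.43, and the 3 values lay below its 0 h range. These 3 probes were the only ones of the 12 largest rises whose 24 h mean was nearer the 0 h than the 6 h mean. In each of them the NaCl samples at 6 h were also all above those at 0 h. Their levels at 24 h were compared as values, without a test.

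The other 9 of the 12 largest rises were still near or above their 6 h level at 24 h of sorbitol, and in 7 of the 12 the 24 h mean exceeded the 6 h mean. CL916Contig1_78_116 read 8.94, 10.18 and 10.04 at 0 h, 12.12, 12.09 and 12.87 at 6 h and 12.14, 12.46 and 12.56 at 24 h. Its log2 fold change at 6 h was 2.64 (SE 0.35, adjusted p = 9.32e-05 by limma). Bg05-12_G11_250_289 went from 8.40, 8.36 and 7.77 to 11.29, 10.37 and 10.00 at 6 h, a log2 fold change of 2.38 (SE 0.31, adjusted p = 7.56e-05 by limma), and stood at 11.39 to 11.93 at 24 h. The values of both probes at 6 h were separated from those at 0 h by gaps of 1.90 and 1.60 log2 units. In NaCl their 6 h samples were also all above the 0 h samples, by 1.47 and 0.79 in the means.

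The overlapping probes Bg04-13_F23_528_563 and CL99Contig1_532_567, which share 34 bases, rose by nearly the same amount. The first read 10.12, 9.80 and 10.91 at 0 h and 12.90, 12.01 and 13.07 at 6 h, a log2 fold change of 2.39 (SE 0.31, adjusted p = 7.56e-05 by limma). The second read 10.74, 10.61 and 11.17 at 0 h and 13.24, 12.75 and 13.61 at 6 h, a log2 fold change of 2.36 (SE 0.28, adjusted p = 2.69e-05 by limma). Both held at 24 h, with means of 12.83 and 13.27. In NaCl their mean differences from 0 h to 6 h were 0.84 and 1.60, and the difference between sorbitol and NaCl did not pass the test for either (adjusted p = 0.0771 and 0.308 by limma).

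A further 5 of the 12 had NaCl samples at 6 h that overlapped those at 0 h, and 3 of these differed between the treatments by the direct test described further on. The remaining 2 just missed it. Bg05-15_J02_161_195 read 7.11, 8.42 and 6.80 at 0 h, where 1 of 3 samples was above the negative controls, and 10.34, 10.20 and 9.92 at 6 h. Its fitted log2 fold change was 2.71 (SE 0.38, adjusted p = 0.000164 by limma). The NaCl means were 7.85 at 0 h and 8.23 at 6 h (fitted difference of responses 2.33, adjusted p = 0.0543 by limma). Both sizes are not exact, because most 0 h samples were not above the negative controls. CL273Contig1_562_597 was above the negative controls in no sample at 0 h (6.48, 7.24 and 7.34) and in all 3 at 6 h (9.66, 9.03 and 10.13), at least 2.42-fold higher (adjusted p = 0.00186 by limma). In NaCl it was above them in no sample at 0 h or at 6 h, with a fitted difference of responses of 2.91 (adjusted p = 0.052 by limma). A probe that shares 21 bases with it, Bg02-08_D17_564_599, did not pass the test (fitted log2 fold change 1.22, SE 0.43, adjusted p = 0.161 by limma). Its 3 values at 6 h were all above the negative controls and above its 0 h values, none of which was, but that bar differed between arrays.

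**Figure D2:**
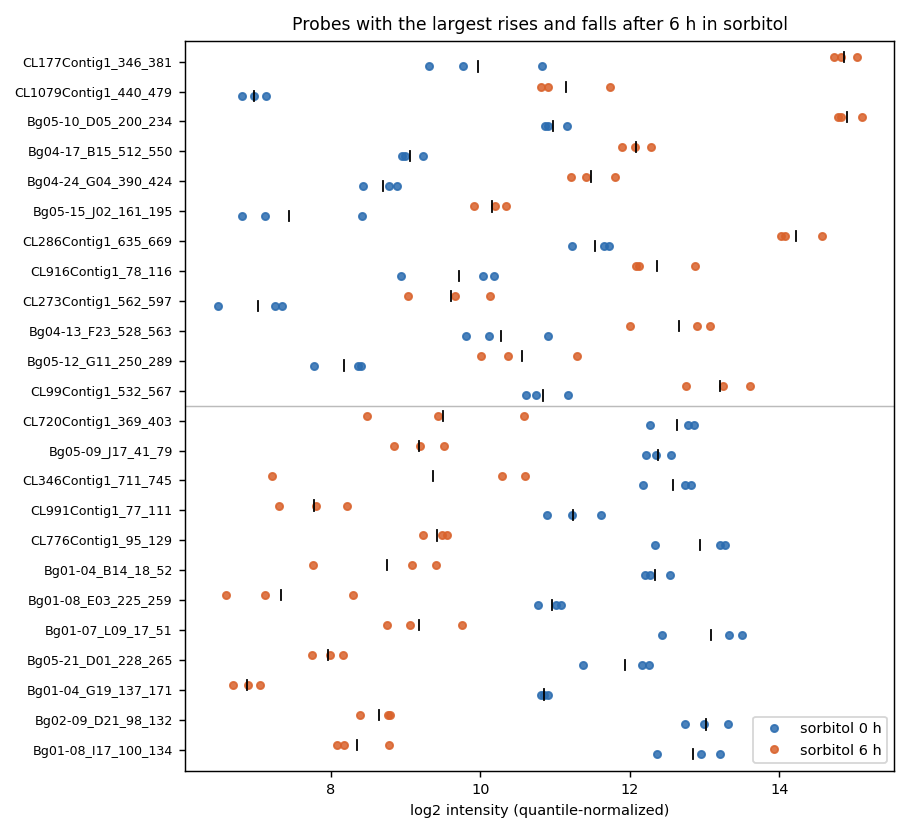
Quantile-normalized log2 intensity of the 12 probes with the largest rises (upper block) and the 12 with the largest falls (lower block), 1 point per sample, blue at sorbitol 0 h and orange at sorbitol 6 h, with a tick at each group mean. In none of the 24 probes do the 2 groups overlap, and CL346Contig1_711_745 has the widest spread at 6 h.

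The 3 overlapping probes shown in capitals above included the 2 largest falls. Bg01-08_I17_100_134 went from 12.95, 13.21 and 12.36 at 0 h to 8.78, 8.17 and 8.08 at 6 h, a log2 fold change of -4.50, or 22.6-fold lower (SE 0.31, adjusted p = 1.03e-08 by limma). Bg02-09_D21_98_132 went from 13.00, 13.31 and 12.74 to 8.77, 8.79 and 8.39, a log2 fold change of -4.37 (SE 0.28, adjusted p = 2.67e-09 by limma). CL776Contig1_95_129 went from 13.21, 13.28 and 12.34 to 9.23, 9.55 and 9.48, a log2 fold change of -3.52 (SE 0.27, adjusted p = 4.12e-08 by limma). All 3 were thus bright at 0 h, and gaps of 3.58, 3.95 and 2.79 log2 units separated their highest 6 h from their lowest 0 h value. Since they share most of their sequence, they are not independent of each other. At 6 h 2 of 3 samples of the first and all of the other two were above the negative controls. At 24 h of sorbitol their means were 12.04, 12.13 and 12.21, nearer the 0 h level than the 6 h level. In NaCl the means went from 12.28, 12.33 and 12.56 at 0 h to 8.69, 9.05 and 9.63 at 6 h, again without overlap.

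Among the other falls, Bg05-09_J17_41_79 was above the negative controls in all 6 samples. It read 12.55, 12.22 and 12.35 at 0 h and 8.85, 9.19 and 9.51 at 6 h, a log2 fold change of -3.19 (SE 0.23, adjusted p = 1.04e-08 by limma), and was at 10.55 to 10.77 at 24 h. The gap between the groups was 2.72 log2 units. Its NaCl values were 12.25 to 12.56 at 0 h and 9.38 to 9.56 at 6 h. Bg01-08_E03_225_259 went from 11.02, 11.08 and 10.77 to 6.59, 7.12 and 8.29, where 1 of 3 samples was above the negative controls, a fitted log2 fold change of -3.62 (SE 0.37, adjusted p = 2.37e-06 by limma). That size is not exact for this reason. At 24 h it stood at 10.44 to 10.84, back beside its 0 h range.

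Bg01-04_G19_137_171 was above the negative controls in all samples at 0 h (10.91, 10.81 and 10.85) and in none at 6 h (6.89, 6.69 and 7.04), at least 7.45-fold lower (adjusted p = 0.000114 by limma). Its values at 24 h were split, with 10.10 and 10.02 in A and B and 6.88 in C, an array of lowest signal. Bg05-21_D01_228_265 showed the same split at 24 h (11.14, 11.21 and 7.79) after a fall from 11.37, 12.16 and 12.26 at 0 h to 7.74, 7.98 and 8.16 at 6 h. Its fitted log2 fold change at 6 h was -3.97 (SE 0.59, adjusted p = 0.000306 by limma), which is not exact because 1 of 3 samples at 6 h was above the negative controls. Bg01-04_B14_18_52 went from 12.21, 12.53 and 12.27 to 7.75, 9.40 and 9.08 at 6 h (2 of 3 above the negative controls), a log2 fold change of -3.59 (SE 0.57, adjusted p = 0.000498 by limma), and read 11.19, 10.84 and 7.99 at 24 h. The part of the low signal of 24 h C in these splits was not tested. At 6 h the falls of all 3 probes were seen in A and B as well as in C.

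CL991Contig1_77_111 read 11.22, 10.89 and 11.62 at 0 h and 7.30, 7.80 and 8.22 at 6 h, a fitted log2 fold change of -3.47 (SE 0.53, adjusted p = 0.00036 by limma). Only 1 of its 3 samples at 6 h was above the negative controls, so the size is not exact. It was still low at 24 h, at 8.99, 8.75 and 7.45. CL346Contig1_711_745 went from 12.18, 12.74 and 12.81 to 7.21, 10.29 and 10.59 (2 of 3 above the negative controls), a log2 fold change of -3.21 (SE 0.69, adjusted p = 0.00964 by limma). Sample A lay far below B and C at 6 h, and without it the log2 fold change was -2.13 (adjusted p = 0.0566 by limma), just outside the threshold. The call was lost in 5 of 22 other settings, some of which kept sample A. CL720Contig1_369_403 read 12.78, 12.85 and 12.27 at 0 h and 10.58, 9.44 and 8.48 at 6 h, a log2 fold change of -3.14 (SE 0.54, adjusted p = 0.00132 by limma). In NaCl its means were 11.38 at 0 h and 11.42 at 6 h, and the difference of responses was -3.17 (adjusted p = 0.0582 by limma).

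The 0 h groups of both series, all of untreated leaves, were not alike for every probe. Bg01-07_L09_17_51 fell in sorbitol from 13.50, 13.32 and 12.44 to 9.75, 9.05 and 8.75, a log2 fold change of -3.90 (SE 0.79, adjusted p = 0.00548 by limma). The NaCl 0 h samples of the same probe read 10.30, 8.58 and 11.67, all below the sorbitol 0 h samples. With NaCl 0 h in place of sorbitol 0 h as the control, the log2 fold change was -0.999 (adjusted p = 0.465 by limma). Over all probes that control gave 772 calls, 216 of them among the 274, and both 0 h groups pooled gave 567 calls, 265 of them among the 274.

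Of the 3 brightest probes that rose, CL177Contig1_346_381 and Bg05-10_D05_200_234 are described above. The third and the 3 brightest that fell changed by 1.20 to 1.39 in log2 size. CL47Contig1_797_831 rose from 14.04, 14.13 and 14.21 to 15.64, 15.38 and 14.95, a log2 fold change of 1.20 (SE 0.25, adjusted p = 0.00686 by limma). Bg02-06_D13_251_286 fell from 15.45, 15.52 and 15.41 to 13.72, 14.21 and 14.68, a log2 fold change of -1.25 (SE 0.28, adjusted p = 0.012 by limma). CL49Contig1_177_211 fell from 15.38, 15.34 and 14.59 to 13.99, 13.70 and 13.99, a log2 fold change of -1.21 (SE 0.30, adjusted p = 0.0257 by limma). The groups of these 3 probes did not overlap, but the gap was as small as 0.60 log2 units for CL49Contig1_177_211. Each of the 3 had a pixel mean or median at the scanner ceiling in 1 sample of its brighter group, so their sizes are not exact. Bg01-07_G09_8_42 fell from 14.68, 14.68 and 14.83 to 13.38, 13.15 and 13.50, a log2 fold change of -1.39 (SE 0.30, adjusted p = 0.00845 by limma), and was not called without the arrays of lowest signal.

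At the threshold itself, the 2 called probes with the highest adjusted p were Bg04-03_I07_204_238 (log2 fold change 1.19, adjusted p = 0.0494 by limma) and Bg03-08_O19_29_63, which was at least 1.11-fold higher with an adjusted p just under the threshold. The nearest outside were Bg04-18_A15_445_484 (log2 fold change -1.32, adjusted p = 0.0504 by limma) and CL169Contig1_98_132 (log2 fold change -1.58, adjusted p = 0.0504 by limma). The fitted changes outside were negative and larger in size than the positive ones inside, so the threshold does not sort these 4 probes by size.

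Probes that share sequence allowed the changes to be set against each other. Among all tested probes, 18 groups that share at least 20 consecutive bases on either strand held a called probe, 32 called probes and 7 others. All fitted changes within a group had the same sign, in 14 groups upward and in 4 downward. In 11 groups every probe was called. In the other 7 a partner missed the threshold, with fitted log2 changes of 0.67 to 1.22 in size and limma adjusted p-values of 0.0677 to 0.647. A group of 3 is an example of close likeness: Bg03-09_H03_58_92, Bg04-03_N01_54_88 and CL120Contig1_54_88 share 30 bases (capitals).
Bg03-09_H03_58_92: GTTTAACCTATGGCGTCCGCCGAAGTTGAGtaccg
Bg04-03_N01_54_88: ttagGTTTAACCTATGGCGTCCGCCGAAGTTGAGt
CL120Contig1_54_88: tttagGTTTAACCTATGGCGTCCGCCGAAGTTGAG
Their log2 fold changes were 1.87 (SE 0.35), 1.61 (SE 0.28) and 1.75 (SE 0.30), with limma adjusted p-values of 0.00256, 0.00126 and 0.00118.

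Spots of identical sequence gave a measure of the spread between spots. Over 60 pairs of tested probes with the same sequence, the log2 fold changes at 6 h differed by 0.147 at the median and by 1.33 at most. The median SE of a fold change was 0.303. In 3 pairs both probes were called and in 3 only 1 was. The pair Bg02-05_K07_214_248 and Bg05-08_K12_214_248 rose by 1.49 and 1.49. The pair Bg04-24_G04_390_424 and Bg04-04_P17_390_424, shown above, rose by 2.78 (SE 0.25, adjusted p = 4.5e-07 by limma) and 1.75 (SE 0.35, adjusted p = 0.00585 by limma). At 0 h the first read 8.78, 8.88 and 8.43 and the second 9.41, 9.20 and 9.83, so the second was the brighter before treatment. At 6 h they read 11.81, 11.21 and 11.41 against 11.88, 11.28 and 10.52, close in A and B and apart in C. A difference of about 1 log2 unit between 2 probes is therefore within what 2 spots of the same sequence have shown here.

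**Figure D3:**
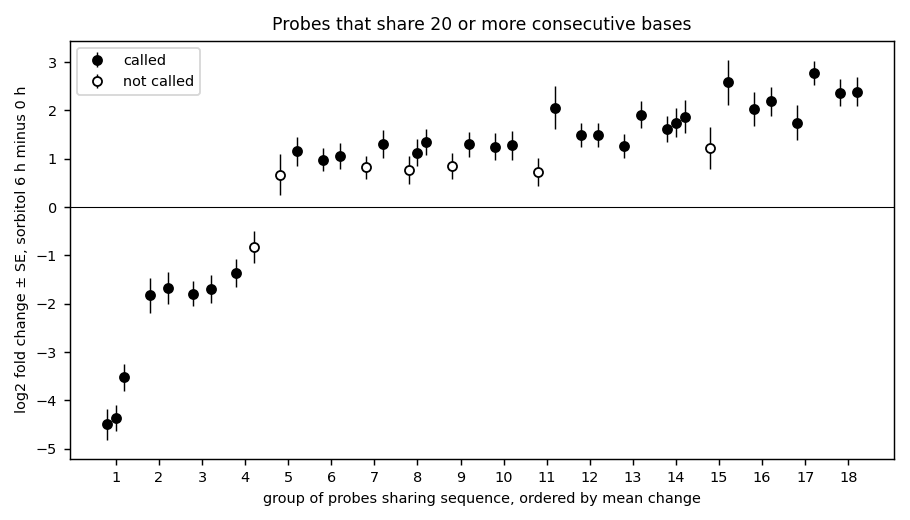
Fitted log2 fold change ± SE (sorbitol 6 h minus sorbitol 0 h) of the 39 probes in the 18 groups that share at least 20 consecutive bases, filled where called and open where not, ordered by the mean of the group. In every group all probes lie on the same side of 0.

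Called probes were not spread evenly over the clone sets named in the files. Contig probes were called in 7.27% (41 rose and 34 fell of 1031) and single-clone probes in 2.61% (112 and 87 of 7624). Contig probes were also brighter, with a median level at 0 h of 10.29 against 9.20. Among single clones, 29 of 724 probes of the Bg01 set fell (4.01%) and 10 rose (1.38%), whereas 12 of 2996 probes of the Bg04 set fell (0.401%) and 48 rose (1.60%). The Bg01 set had a median level of 9.54 at 0 h and the Bg04 set of 9.09. Of the 12 largest falls 5 were Bg01 probes. The part of the level in these shares was not tested. The median GC content of the probes was 48.6% among risen, fallen and all tested probes.

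For most called probes the NaCl series, with its own 0 h samples, moved the same way. Of the 153 probes that rose in sorbitol, 134 were higher at 6 h than at 0 h of NaCl by their means, and in 86 the NaCl samples at 6 h were all above those at 0 h, against 14.6% of all tested probes. In 4 of the 153 they were all below. Of the 121 that fell, 105 were lower in the NaCl means and in 69 the NaCl samples were all below, against 16.2% of all tested probes, with none all above. Over all 8655 tested probes, the means moved the same way in both treatments in 4633. The median NaCl log2 change was 0.85 among the risen and -0.70 among the fallen probes, beside 0.02 over all probes. The sorbitol medians were 1.35 and -1.53. Since the probes were picked by their change in sorbitol, a smaller NaCl median is no measure of a weaker NaCl response.

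**Figure D4:**
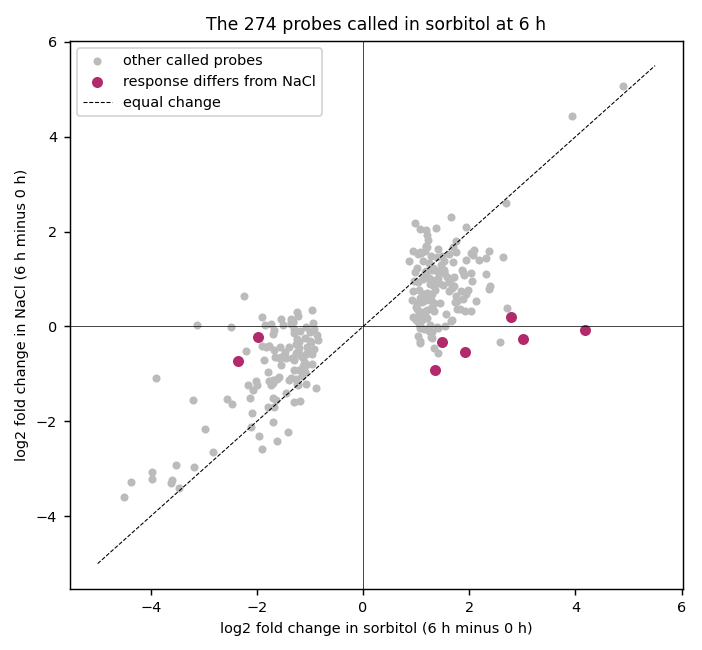
Log2 fold change in NaCl (6 h minus 0 h) against that in sorbitol for the 274 probes called in sorbitol, with the 8 whose response differed between the treatments in purple and a dashed line of equal change. Most points lie at the lower left and the upper right, and the 8 lie near or below 0 in NaCl.

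Whether the sorbitol response differed from the NaCl response was tested in the same model, with separate untreated samples for each treatment. Over all tested probes 25 differed (limma adjusted p under 0.05), which is 0.289%, and 1609 had an unadjusted p under 0.05. Of the 274 probes called in sorbitol 8 differed, 6 with the higher and 2 with the lower response in sorbitol. The replicate block adds the letters, shared by both series, to the model, although samples of a letter deviated together only in sorbitol. With it, 39 of the probes called in sorbitol differed, the 8 among them. Without the arrays of lowest signal, which include NaCl 6 h C, 9 differed, 5 of the 8 among them.

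The largest difference was that of CL1079Contig1_440_479, which is above the negative controls only in treated sorbitol leaves. It read 6.97, 7.13 and 6.80 at sorbitol 0 h, with no sample above the negative controls, and 10.90, 10.81 and 11.74 at 6 h, at least 7.05-fold higher (adjusted p = 3.86e-07 by limma). At 24 h it was at 9.90, 11.11 and 10.91. In NaCl it read 7.69, 6.60 and 6.84 at 0 h and 6.82, 6.52 and 7.55 at 6 h, and no NaCl sample of 0 h, 6 h or 24 h was above the negative controls. The fitted difference of responses was 4.26 (SE 0.53, adjusted p = 0.000765 by limma), which has no exact size for that reason.

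Bg04-17_B15_512_550 rose in sorbitol from 8.99, 8.94 and 9.23 to 12.06, 11.89 and 12.28, a log2 fold change of 3.02 (SE 0.36, adjusted p = 2.69e-05 by limma). It stood still higher at 24 h (12.26, 13.39 and 13.45). In NaCl it read 8.41, 9.26 and 9.31 at 0 h and 9.06, 8.50 and 8.60 at 6 h, which overlap. The difference of responses was 3.29 (SE 0.51, adjusted p = 0.00518 by limma). Bg04-24_G04_390_424, whose sorbitol values are given above, read 8.07, 7.98 and 8.25 at NaCl 0 h and 8.16, 8.04 and 8.67 at 6 h, and its responses differed by 2.59 (SE 0.36, adjusted p = 0.00194 by limma). Its twin spot Bg04-04_P17_390_424 read 8.59, 8.59 and 9.87 at NaCl 0 h and 9.51, 10.13 and 9.31 at 6 h, and its difference of 1.11 did not pass the test (adjusted p = 0.239 by limma). The same 35 bases thus gave a called difference on 1 spot and none on the other.

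In 4 of the 8 probes the untreated leaves of both series already stood apart. The share of all tested probes that did so was not counted, so whether 4 of 8 is unusual cannot be said. Both 0 h groups enter the difference by which the 8 were picked, so 0 h groups that stand apart are favoured. For Bg04-24_G04_390_424 the 0 h means were 8.70 in sorbitol and 8.10 in NaCl, and for CL140Contig1_674_708 they were 11.60 and 10.97, without overlap. With NaCl 0 h as the control both kept their call in sorbitol, with log2 fold changes of 3.37 and -1.34 (adjusted p = 3.31e-08 and 0.00206 by limma). The other two lost it. Bg02-10_E22_336_373 rose in sorbitol from 9.23, 9.98 and 9.93 to 11.67, 11.28 and 11.92, a log2 fold change of 1.91 (SE 0.29, adjusted p = 0.000306 by limma). In NaCl it read 10.43, 11.21 and 10.50 at 0 h, all above the sorbitol 0 h values, and 10.15, 10.01 and 10.34 at 6 h. The difference of responses was 2.46 (SE 0.40, adjusted p = 0.00936 by limma), and with NaCl 0 h as the control the rise in sorbitol was 0.91 (adjusted p = 0.0511 by limma). Bg04-04_L05_321_355 was above the negative controls in no sample at sorbitol 0 h (7.73, 7.91 and 7.32) and in all at 6 h (8.99, 9.31 and 8.74), at least 1.60-fold higher (adjusted p = 0.00483 by limma). Its NaCl values were 8.89, 8.76 and 8.18 at 0 h and 7.94, 7.35 and 7.79 at 6 h, and the fitted difference of responses was 2.28 (SE 0.38, adjusted p = 0.0101 by limma). With NaCl 0 h as the control its fitted rise in sorbitol was 0.40 (adjusted p = 0.379 by limma). The direction in these last 2 probes was kept, and the calls in sorbitol depended on which untreated leaves served as the control.
A neighbour that shares 31 bases (capitals) with the first of them is shown for comparison.
Bg02-10_E22_336_373: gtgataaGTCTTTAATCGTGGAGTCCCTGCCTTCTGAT
CL417Contig1_296_332: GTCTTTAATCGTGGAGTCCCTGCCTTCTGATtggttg
CL417Contig1_296_332 also rose in sorbitol, from 10.89, 11.23 and 10.90 to 12.36, 12.21 and 12.23, a log2 fold change of 1.26 (SE 0.24, adjusted p = 0.00348 by limma). Its NaCl means were 11.10 at 0 h and 11.14 at 6 h, and the difference of responses of 1.22 (SE 0.34) missed the threshold (adjusted p = 0.077 by limma).

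CL372Contig1_499_533 rose from 11.55, 11.55 and 11.59 to 12.89, 13.01 and 13.27, a log2 fold change of 1.49 (SE 0.27, adjusted p = 0.00178 by limma), and stood at 13.28 to 13.88 at 24 h. In NaCl it read 11.59 to 12.43 at 0 h and 11.28 to 12.10 at 6 h, and its responses differed by 1.82 (SE 0.38, adjusted p = 0.0405 by limma). The remaining 2 probes fell further in sorbitol. CL385Contig1_1074_1108 went from 12.75, 12.48 and 12.78 to 10.46, 10.46 and 10.03, a log2 fold change of -2.35 (SE 0.23, adjusted p = 1.4e-06 by limma). Its NaCl values were 12.26, 12.20 and 12.73 at 0 h and 11.79, 11.48 and 11.77 at 6 h, lower without overlap but by less, and the difference of responses was -1.63 (SE 0.32, adjusted p = 0.034 by limma). CL140Contig1_674_708 went from 11.63, 11.40 and 11.78 to 9.50, 9.60 and 9.80, a log2 fold change of -1.97 (SE 0.26, adjusted p = 8.09e-05 by limma). Its NaCl means were 10.97 and 10.75, and the difference of responses was -1.75 (SE 0.36, adjusted p = 0.0405 by limma). For these last 3 probes the call of a difference was lost in 11 or 12 of 20 other settings, and for the other 5 in at most 2.

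**Figure D5:**
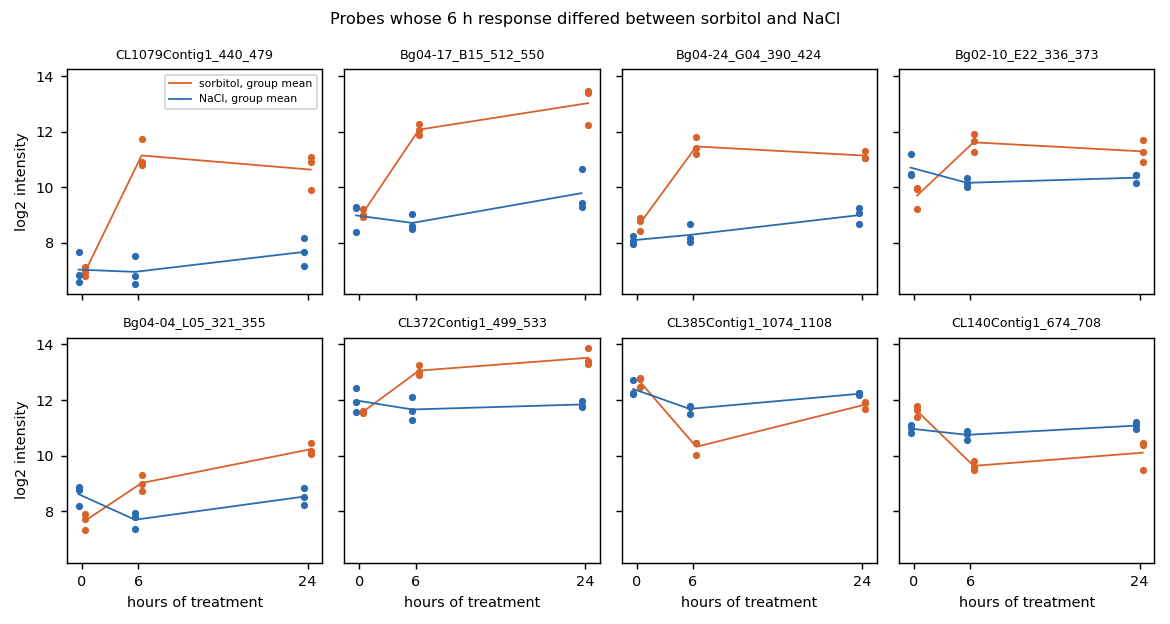
Log2 intensity at 0, 6 and 24 h of the 8 probes called in sorbitol at 6 h whose response differed from NaCl, 1 point per sample and lines through the group means, orange for sorbitol and blue for NaCl. The first 6 panels rise in sorbitol by 6 h and the last 2 fall, while the NaCl lines stay flatter over the same 6 h.

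The later course in sorbitol differed between risen and fallen probes in their values. The 24 h mean was nearer the 0 h than the 6 h mean in 37 of the 153 risen probes and in 67 of the 121 fallen probes, against 3793 of all 8655 tested. Median levels of the risen probes were 8.89, 10.47 and 10.55 at 0, 6 and 24 h, and of the fallen probes 11.41, 9.50 and 10.52. These counts use the 6 h samples by which the probes were picked, so a movement back is favoured and no test was made.

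The count of changed probes was lower in several other fits. Leaving out 1 sample gave 170 (sorbitol 0 h A) to 245 (sorbitol 6 h C) called probes, and without sorbitol 6 h A it was 180. Median scaling in place of quantile normalization gave 149 called probes, 61.1% of them higher in place of 55.8%, all 149 among the 274. The authors' deposited table gave 25 called probes, all among the 274, and 20 of the 36 named called probes lost their call there, with CL177Contig1_346_381 among them (log2 fold change 4.95, adjusted p = 0.298 by limma). Of the bright probes, CL49Contig1_177_211 lost its call in 9 of 23 other settings.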

How the data were processed

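Per the labels' protocols, Cy5-labelled cRNA was made from leaf total RNA. The scanner files as deposited by the authors hold, per the file headers, foreground mean and median intensity per spot on a linear scale, with no background column. No scanner software is named in the labels or headers. Of 12544 spots, 11997 were mangrove probes and 70 negative controls.

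Foreground means were corrected with normexp (offset 50; where that fit failed on the arrays of lowest signal, which include both C arrays, foreground plus 50), log2 transformed and quantile-normalized over the mangrove probes. On the 6 arrays normexp subtracted a background only on sorbitol 0 h B. A probe was detected above the 95th percentile of an array's negative controls and tested if detected in 3 of 18 samples. All 18 samples, the repeat array of NaCl 0 h C averaged with its first, entered 1 limma model of 6 group means (12 residual degrees of freedom) without covariates, with Benjamini-Hochberg adjustment over 8655 probes. A difference of responses is the sorbitol change minus the NaCl change. The model was tested on simulated data.

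Samples of the same letter deviated together in sorbitol (r across probes 0.477, 0.209 and 0.370 for A, B and C), not in NaCl (0.175, 0.0159 and -0.254), so the letters may pair the sorbitol samples. The main model left this pairing out. The replicate block fitted the letters across both series. It gave 337 changed probes in place of 274, and 39 in place of 8 that differ from NaCl. Both sorbitol C arrays were of lowest signal, so for C a shared letter and shared array quality cannot be told apart. The labels call the letters biological replicates; whether each letter is a plant of its own they do not say. No date or slide batch was given.

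Named probes are the 12 highest and 12 lowest changes among called probes without overlap, called probes that share 20 bases with them, those that differ from NaCl, the 3 brightest each way and the 2 on each side of the threshold; CL417Contig1_296_332, Bg02-08_D17_564_599 and the further shared-sequence probes were chosen after their values were seen. The comparison, these rules and the settings were chosen with earlier results of these data known. Gene groups need gene descriptions and were not formed. The authors' deposited table of intensity values, with unstated processing, served as an alternative. In it the column medians were 521.3 for 16 samples and 782 and 83 for sorbitol 24 h B and C, so these columns lie on another scale. R 4.3.3, limma 3.58.1, pandas 2.3.3, networkx 3.6.1 and matplotlib 3.10.9 (Python 3.11.15) were used.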

Additional observations from a re-analysis of the deposited data

Results flagged for a closer look

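Of the probes called in sorbitol at 6 h, 8 were also past the test of the difference between the sorbitol and the NaCl response, each against its own 0 h group (limma, adjusted over all probes). The differences on the log2 scale, sorbitol minus NaCl, were 4.26 for CL1079Contig1_440_479, 3.29 for Bg04-17_B15_512_550, 2.59 for Bg04-24_G04_390_424, 2.46 for Bg02-10_E22_336_373, 2.28 for Bg04-04_L05_321_355 and 1.82 for CL372Contig1_499_533. They were -1.75 for CL140Contig1_674_708 and -1.63 for CL385Contig1_1074_1108. For CL1079Contig1_440_479 and Bg04-04_L05_321_355 the size is not exact, because groups were not above the negative controls. The difference of Bg04-24_G04_390_424 was not called on the second spot of the same sequence. The 0 h samples of both series did not overlap for Bg02-10_E22_336_373, Bg04-04_L05_321_355, Bg04-24_G04_390_424 and CL140Contig1_674_708. The share of all tested probes with such a gap was not counted. Both 0 h groups enter the difference by which the 8 were picked, so such gaps are favoured. The part of these unequal 0 h levels in the differences was not tested.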

How the results depend on the processing

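The count of 274 changed probes was 149 with median scaling, 163 with only the 6 sorbitol samples in the fit, 25 with the authors' deposited table, 772 with NaCl 0 h as the control and 567 with both 0 h groups pooled. Leaving out 1 sorbitol sample gave 170 to 245. The share of calls that were higher, 55.8% here, was 47.6% without the arrays of lowest signal, 46.6% among probes detected in all 18 samples and 45.9% without sorbitol 0 h A. The replicate block gave 337. The count of 8 probes that differ from NaCl was 39 with the replicate block, 14 with the replicate block and without the arrays of lowest signal and 13 with foreground plus 50 and without those arrays, the last 2 settings being chosen after seeing the data. With detection required in all 18 samples it was 20, and it was 17 with the low-signal arrays as a block, 16 with a trended and robust eBayes and 13 when the repeat array of NaCl 0 h C was left out. It was 4 with median scaling, 5 when no filter on dim probes was set, and 0 in the authors' deposited table, where limma gave 193 probes an unadjusted p under 0.05 for the difference. Leaving out 1 sorbitol sample gave 5 (without 0 h C or 6 h B) to 11. The causes were not tested. The deposited table has 2 columns on another scale, which enter the spread of that fit.

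Of 810 values of the 36 named called probes in other settings, none changed sign and 72 lost the call, 20 of them with the authors' table. Many of these settings could not change a sign. Some leave the fitted change as it is, and others only leave out samples of groups that do not overlap. CL169Contig1_98_132, just outside the threshold, changed sign with NaCl 0 h as the control (0.54). Probes near the negative controls have no exact fold, and 3 samples a group limit all sizes.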
